A study of Mus musculus with 2 samples.

Results

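The transcripts described here are those of 10 scavenger receptor genes: Msr1, Marco, Cd36, Scarb1, Cd68, Olr1, Scarf1, Stab1, Cd163 and Cd5l. They were taken by mouse symbol from 34745 listed Ensembl IDs, and all 10 were found in both libraries. A single RNA library carries the genotype label Kdm2b-/- (knockout), and another the label wild type. Both came from C57BL/6 peritoneal macrophages, collected on day 4 after an injection of thioglycollate, an irritant broth that draws such cells into the abdominal cavity. Both were exposed to lipopolysaccharide (LPS), a bacterial membrane component, at 100 ng/ml for 4 h by one label and 3 h by another, so neither library shows the unstimulated state. The sources used here do not give the Kdm2b allele or the cells in which it was deleted, nor the number, sex and age of the mice. Each group was 1 library, so differences have no replicate check and no test, and each statement describes these libraries only.

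Scavenger receptors are a mixed set of proteins grouped by what they bind, chiefly modified lipoproteins, microbial surfaces, dying cells and other polyanionic debris. The classes share little sequence. Macrophages use them to take up lipid and to clear bacteria and cell remnants, and several of them work with Toll-like receptors. In the peritoneal cavity they belong to both the resident cells and the monocyte-derived cells that follow an irritant.

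Values are FPKM, fragments scaled to gene length and library size, as the authors deposited them. Differences are log2 ratios, Kdm2b-/- label over wild type, on FPKM + 1, and a gene passed the floor when the mean of the libraries reached 1 FPKM. FPKM multiplied by the summed length of a gene's distinct annotated exons fell on whole multiples of a fixed step, which gave a whole-number count for 9 of the 10 receptors. Read as 1 fragment, the step corresponded to a depth of 26806536 fragments in the library labelled Kdm2b-/- and 27272348 fragments in the wild-type library. Intervals are exact Clopper-Pearson 95% intervals of the log2 FPKM ratio from those counts, each taken as 1 fragment. They cover counting error only.

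Kdm2b, the gene named in the label, had 0.326 FPKM (164 counts) in the library labelled Kdm2b-/- and 0.205 FPKM (105 counts) in the wild-type library, so this gene-level value, which cannot show a deleted exon, was not lower under the knockout label. The counting interval of Kdm2b was 0.31 to 1.04, and -0.05 to 1.38 from counts scaled down to its longest transcript (45 and 29). Gm43411 and Gm44574 overlap Kdm2b on the same strand, and Rnf34 and A930024E05Rik on the opposite strand. Reads could therefore have been shared between them. Directions below follow the genotype label. The libraries also differed in sex-linked transcripts. The Y-linked genes Ddx3y, Eif2s3y, Kdm5d and Uty had 5.72, 10.2, 0.592 and 0.574 FPKM in the library labelled Kdm2b-/- and were all listed at 0 in the wild-type library. Xist, the RNA that silences an X chromosome in female cells, had 0.00398 FPKM in the library labelled Kdm2b-/- and 8.55 FPKM in the wild-type library. Genotype label and this sex-linked difference therefore cannot be told apart in any value below. Macrophage markers were present in both libraries: 10 of 11 passed the floor, the summed level was 12546 FPKM in the library labelled Kdm2b-/- and 10291 FPKM in the wild-type library, and none was listed at 0. Their median log2 ratio was 0.11.

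Among the 9 scavenger receptors past the floor, Cd36 had the lowest ratio of the library labelled Kdm2b-/- to wild type, and Scarf1 and Scarb1 had the highest. Of these 9, 0 were 2-fold apart and 0 were 1.5-fold apart on the FPKM + 1 scale, where 1.88% and 7.5% of all 9038 genes past the floor were. With 9 genes and shares this small, a count of 0 does not set the receptors apart from other genes, and in plain FPKM Scarf1 and Scarb1 were past 1.5-fold, at ratios of 1.52 and 1.51. By direction, 0.863% of all genes stood higher by 2-fold or more and 1.02% lower (78 and 92 genes), while 4.7% of genes stood higher by 1.5-fold or more and 2.8% lower. With the libraries scaled to a median log2 ratio of 0, the 2-fold genes were 44 higher and 113 lower. Cd36, the fatty acid and oxidised-lipoprotein receptor, had a log2 ratio of -0.56. At the other end were Scarf1 at 0.48, Scarb1 at 0.45 and Cd5l at 0.41. The 9 log2 ratios had a median of 0.03, beside 0.10 over all genes, with 6 above 0 and 3 below. Against the all-gene median, 4 of the 9 stood above it and 5 below.

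**Figure D1:**
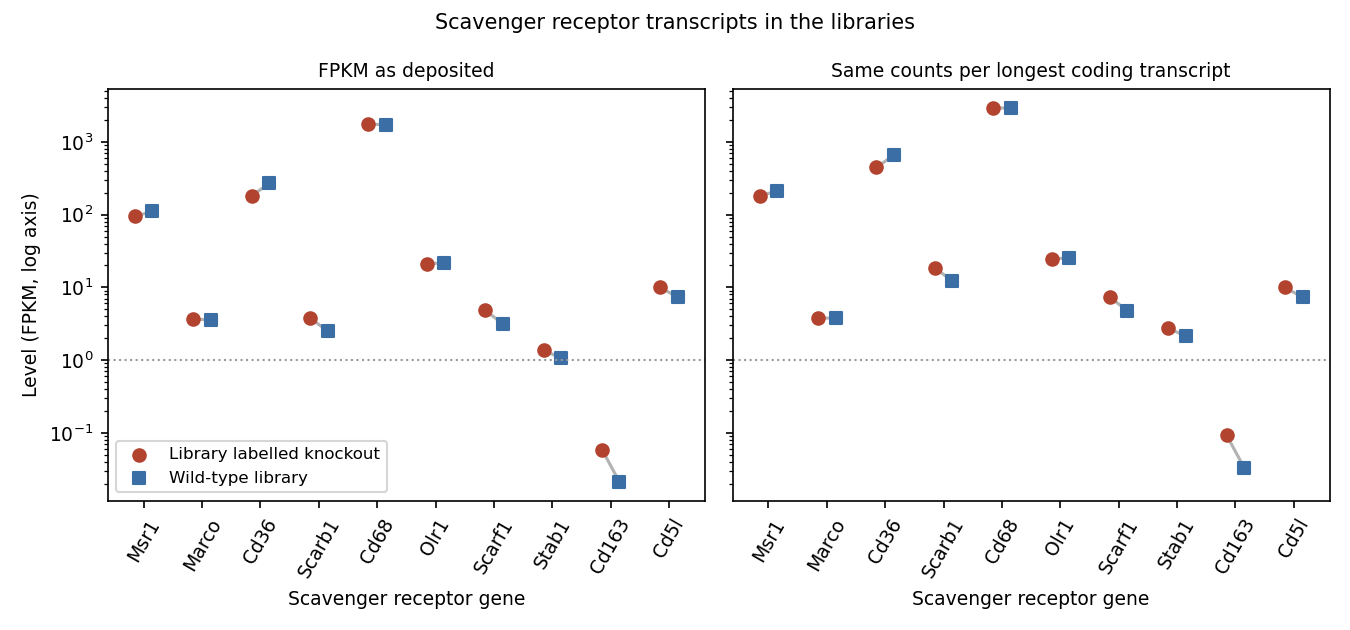
Level of each scavenger receptor transcript in the library labelled Kdm2b-/- (circles) and the wild-type library (squares), on a log axis; the left panel shows FPKM as deposited, the right panel the same values rescaled to the longest coding transcript, and the dotted line marks 1 FPKM. Levels run from 0.0590 FPKM for Cd163 to 1753 FPKM for Cd68 in the library labelled Kdm2b-/-, and Scarb1 moves up most between the panels.

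The class A receptors are trimers with a collagen-like stalk that bind modified lipoprotein and bacterial surfaces. Msr1 (ENSMUSG00000025044, chromosome 8, 39581685 to 39642673, GRCm38), which encodes scavenger receptor A, had 94.2 FPKM in the library labelled Kdm2b-/- and 112 FPKM in the wild-type library. Msr1 was lower in the library labelled Kdm2b-/-, at a log2 ratio of -0.24, with an interval of -0.27 to -0.22 that lay below 0. Its ratio stood at percentile 13.9 of all genes. Msr1 was the 1 receptor whose count did not come out whole with the annotation used, so its interval rests on rounded counts of 17499 and 21098. Marco (ENSMUSG00000026390, chromosome 1, 120474538 to 120505024), the receptor for unopsonised bacteria and particles, had 3.67 FPKM in the library labelled Kdm2b-/- and 3.57 FPKM in the wild-type library. The 198 and 196 counts behind these gave an interval of -0.25 to 0.33. At this depth no difference in Marco was detectable, and its log2 ratio of 0.03 became -0.07 with the libraries scaled to a median log2 ratio of 0.

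The class B receptors are loop-shaped proteins anchored in the membrane at both ends, and they had opposite signs. Cd36 (ENSMUSG00000002944, chromosome 5, 17781690 to 17888801), which takes up long-chain fatty acids and oxidised lipoprotein and binds thrombospondin, had 181 FPKM in the library labelled Kdm2b-/- and 269 FPKM in the wild-type library. That is 0.675 of the wild-type level. The 40556 and 61133 counts left a narrow interval of -0.59 to -0.55, and its log2 ratio stood at percentile 3.03 of all genes. Scarb1 (ENSMUSG00000037936, chromosome 5, 125277087 to 125341094), the high-density lipoprotein receptor that takes up cholesteryl esters, had 3.79 FPKM in the library labelled Kdm2b-/- and 2.51 FPKM in the wild-type library. It stood at 1.51 times the wild-type level in plain FPKM, a log2 ratio of 0.59. The interval was 0.47 to 0.72 in log2 units, from 1248 and 842 counts. The gene Gm42633 overlaps Scarb1 on the same strand, so reads could have been shared between them.

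Cd68 and Olr1 did not differ by as much as the scaling of the libraries could move them. Cd68 (ENSMUSG00000018774, chromosome 11, 69664213 to 69666153), a glycoprotein of late endosomes and lysosomes used as a macrophage marker, had 1753 FPKM in the library labelled Kdm2b-/- and 1722 FPKM in the wild-type library. It was the 30th most abundant gene in the library labelled Kdm2b-/- and the 33rd in the wild-type library. Its log2 ratio of 0.03 became -0.10 when the libraries were scaled to a median log2 ratio of 0. Olr1 (ENSMUSG00000030162, chromosome 6, 129485244 to 129507165), a lectin-like receptor for oxidised lipoprotein, had 21.3 FPKM in the library labelled Kdm2b-/- and 21.5 FPKM in the wild-type library. Its interval ran from -0.10 to 0.06 on 2378 and 2451 counts, and its log2 ratio of -0.02 became 0.07 with equal FPKM totals.

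Scarf1 and Stab1 carry rows of EGF-like repeats. Scarf1 (ENSMUSG00000038188, chromosome 11, 75513540 to 75526582), which binds modified lipoprotein and takes part in clearing dying cells, had 4.81 FPKM in the library labelled Kdm2b-/- and 3.16 FPKM in the wild-type library. Its 563 and 376 counts gave an interval of 0.42 to 0.80 in log2 units. Its ratio of 1.52 in plain FPKM, a log2 ratio of 0.61, was the highest of the receptors past the floor. Stab1 (ENSMUSG00000042286, chromosome 14, 31139013 to 31168641), stabilin-1, a receptor of alternatively activated macrophages and sinusoidal endothelium that takes up the matrix protein SPARC, had 1.37 FPKM in the library labelled Kdm2b-/- and 1.06 FPKM in the wild-type library. Stab1 was close to the floor in both. Its log2 ratio was 0.20 on FPKM + 1 and 0.36 in plain FPKM, with an interval of 0.19 to 0.54 from 588 and 465 counts. Nt5dc2 overlaps Stab1 on the opposite strand, and no strand marking is described in the protocols.

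Cd163 and Cd5l are built from scavenger receptor cysteine-rich domains. Cd163 (ENSMUSG00000008845, chromosome 6, 124304656 to 124330527), the receptor for haemoglobin bound to haptoglobin, was under the floor in both libraries, at 0.0590 FPKM in the library labelled Kdm2b-/- and 0.0211 FPKM in the wild-type library. Those values were 11 and 4 counts, and the interval of -0.27 to 3.59 did not separate them. Cd5l (ENSMUSG00000015854, chromosome 3, 87357881 to 87371073), a secreted protein of tissue macrophages and a known target of liver X receptors, had 9.99 FPKM in the library labelled Kdm2b-/- and 7.28 FPKM in the wild-type library. Its 545 and 404 counts gave an interval of 0.27 to 0.65, and its log2 ratio of 0.41 stood at percentile 87.1 of all genes.

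**Figure D2:**
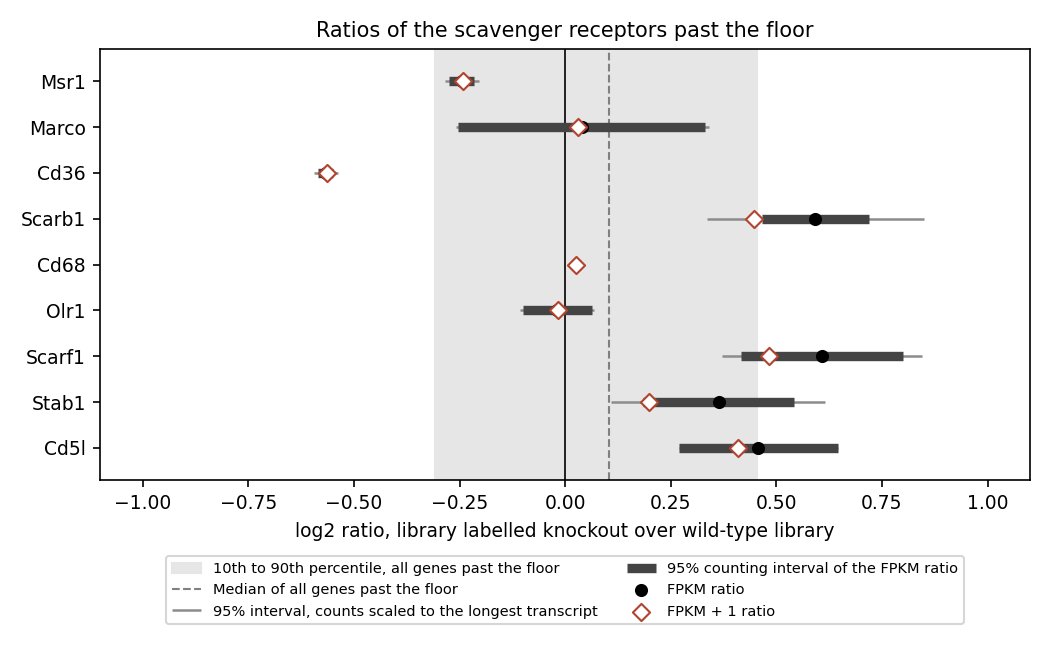
Log2 ratio, library labelled Kdm2b-/- over wild-type library, of the 9 receptors past the floor: dots show the plain FPKM ratio, diamonds the ratio on FPKM + 1, thick bars the 95% counting interval and thin bars the interval from counts scaled down to the longest transcript. The grey band (10th to 90th percentile of all genes, -0.31 to 0.45) is on FPKM + 1 and applies to the diamonds only. By the diamonds, Cd36 lies below the band, and Scarf1 at 0.48 lies just above it.

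Counting error was small beside the choice of scale for the abundant receptors and large for the scarce ones. The intervals of Msr1 and Cd36 lay below 0, and those of Cd68, Scarb1, Scarf1, Stab1 and Cd5l above it. Scaled down to the longest transcript, which lowers the counts, Scarb1 had an interval of 0.34 to 0.85 and Stab1 one of 0.11 to 0.62. That of Cd36 was -0.60 to -0.54. None of these intervals holds the spread between animals. Bulk RNA also cannot separate fewer cells of a type from less RNA per cell.

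The summed level of the receptors was mostly Cd68, which made up 84.5% of the summed FPKM of the 10 genes in the library labelled Kdm2b-/- and 80.4% in the wild-type library. The sum of the 10 was 2073 FPKM in the library labelled Kdm2b-/- and 2141 FPKM in the wild-type library. Without Cd68 it was 320.4 FPKM in the library labelled Kdm2b-/- and 419 FPKM in the wild-type library, with Cd36 as the main part. The first 5 places were held in both libraries by Cd68, Cd36, Msr1, Olr1 and Cd5l. Scarf1, Scarb1 and Marco came next in the library labelled Kdm2b-/-, whereas the order was Marco, Scarf1 and Scarb1 in the wild-type library. Stab1 and Cd163 were the last in both.

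Levels between genes depend on the length that was divided out. The deposited values used the sum of all distinct annotated exons, in which overlapping exons count more than once, and this sum exceeded the longest coding transcript by a factor of up to 4.87, for Scarb1, and equalled it for Cd5l. Per longest coding transcript, Scarb1 would stand at 18.5 FPKM in the library labelled Kdm2b-/- and 12.2 FPKM in the wild-type library, in 5th place ahead of Cd5l. Cd36 would stand at 445 FPKM in the library labelled Kdm2b-/- and 659 FPKM in the wild-type library. Whether a fragment on overlapping exons was counted once or several times cannot be read from the files. The recovered counts summed to 36683236 in the library labelled Kdm2b-/- and 37403505 in the wild-type library, which is more than the depth given above. Where a fragment was counted several times, the counting intervals above are too narrow. The plain FPKM ratio between the libraries is the same under either length, whereas the ratio on FPKM + 1 is not.

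Promoter sequences are shown for Cd36, the receptor with the lowest ratio, and for Cd68 and Olr1, which were nearly equal in the libraries. RefSeq (GRCm38.p6) gave a window from 250 bases before to 50 after the start for 7 of the 10 genes; Msr1, Scarb1 and Scarf1 had no entry. All 3 windows are on the minus strand and are written 5′ to 3′: chr5:17835847-17836146 for Cd36, chr11:69666121-69666420 for Cd68 and chr6:129507116-129507415 for Olr1. Capitals in Cd68 and Olr1 mark TGANTCA, the site of AP-1 factors, which LPS activates, and GAGGAA or its reverse complement, the core of the site of PU.1, the myeloid master regulator. In Cd36, which held neither, capitals mark a unit of 16 bases that stands in direct repeat. None of the 6 annotated starts of Cd36 in GENCODE M21 lies in its window, whereas 1 of 3 lies there for Cd68 and 2 of 5 for Olr1.
Cd36: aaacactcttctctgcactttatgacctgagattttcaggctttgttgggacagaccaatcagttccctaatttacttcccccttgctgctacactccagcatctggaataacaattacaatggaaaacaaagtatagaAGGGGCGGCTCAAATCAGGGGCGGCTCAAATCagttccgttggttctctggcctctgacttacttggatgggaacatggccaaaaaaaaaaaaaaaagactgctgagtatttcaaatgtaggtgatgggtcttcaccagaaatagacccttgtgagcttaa
Cd68: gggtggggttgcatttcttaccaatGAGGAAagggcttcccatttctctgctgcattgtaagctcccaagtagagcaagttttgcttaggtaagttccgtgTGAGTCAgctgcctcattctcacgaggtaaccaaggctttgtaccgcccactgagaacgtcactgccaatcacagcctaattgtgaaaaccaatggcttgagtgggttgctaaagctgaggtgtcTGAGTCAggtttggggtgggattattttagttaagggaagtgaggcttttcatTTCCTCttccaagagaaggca
Olr1: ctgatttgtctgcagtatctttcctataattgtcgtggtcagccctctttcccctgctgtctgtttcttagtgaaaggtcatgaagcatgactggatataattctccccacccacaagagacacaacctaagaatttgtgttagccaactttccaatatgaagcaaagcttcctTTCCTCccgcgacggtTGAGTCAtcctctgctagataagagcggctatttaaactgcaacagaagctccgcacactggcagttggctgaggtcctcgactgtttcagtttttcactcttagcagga
Both strands were searched, and no matches overlapped each other. TGANTCA was found in 2 of the 7 windows, Cd68 (2 matches) and Olr1, and in 7.81% of all 32851 promoter windows. GAGGAA was found in 5 of the 7, those of Marco, Cd68, Stab1, Olr1 and Cd5l, and in 28.3% of all. A back-to-back repeat of a unit of at least 16 bases was found in 0.734% of all windows. The direct repeat bound by the PPAR and RXR pair was in 0 of the 7 and in 0.0396% of all, and the TATA box, TATAAA, in 0 of the 7 and in 13.6% of all. These matches describe letters and not binding.

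The log2 ratio moved with transcript length over all genes, and the receptors were read beside genes of their own length. In 20 bins of the longest transcript the median ran from -0.27 in the shortest to 0.29 in the longest. Cd36 was at -0.56 and Msr1 at -0.24, where genes of their bins had medians of 0.14 and 0.15. Stab1, the longest of the receptors at 7999 bases, was at 0.20 beside a bin median of 0.29, and stood at -0.09 when the trend with length and GC content was removed. Cd68, the shortest at 1230 bases, was at 0.03 beside -0.12. Scarf1, Scarb1 and Cd5l stood above their bins, with 0.37, 0.41 and 0.50 after the trend was removed, and Cd36 stood at -0.49.

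**Figure D3:**
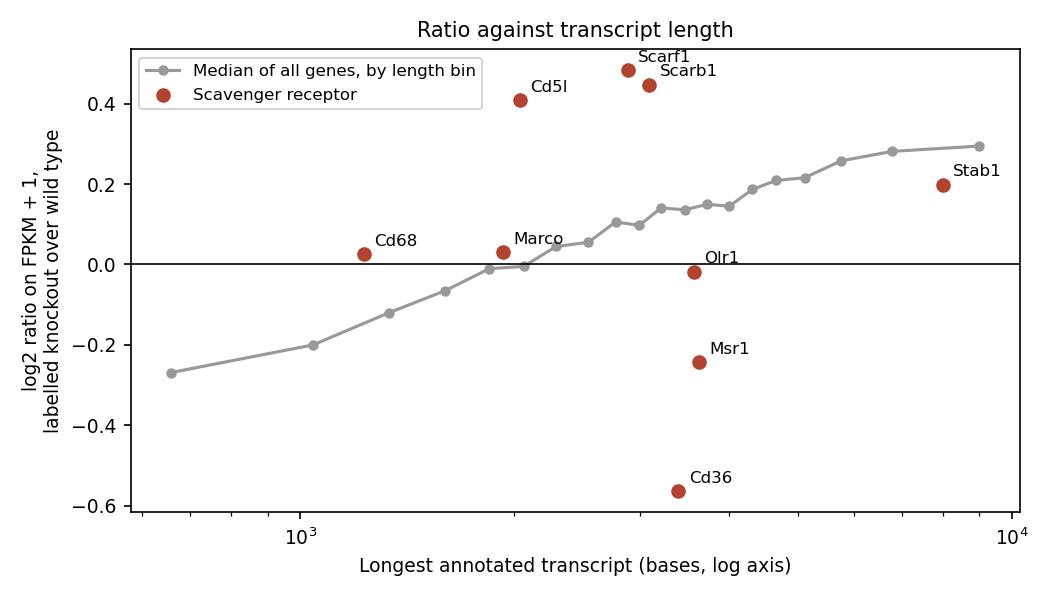
Log2 ratio on FPKM + 1 (library labelled Kdm2b-/- over wild-type library) against the longest annotated transcript in bases, on a log axis; grey points are medians of all genes in 20 bins of length and red points are the 9 receptors past the floor. Cd36 and Msr1 lie below the line of medians, and Scarf1, Scarb1 and Cd5l above it.

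A list of scavenger receptor relatives lay on both sides of 0. It is broader than receptors with scavenging activity and includes Tfrc, Lamp1 and Lamp2. Of 25 listed relatives, 14 passed the floor, with 1 at least 2-fold lower, 0 at least 2-fold higher and a median of -0.03. The lower gene was Tfrc, the transferrin receptor, at 5.51 FPKM in the library labelled Kdm2b-/- and 14.3 FPKM in the wild-type library. Colec12, a collectin of the class A group, had 21.3 FPKM in the library labelled Kdm2b-/- and 36.3 FPKM in the wild-type library. Lrp1, a large endocytic receptor for lipoproteins and protease complexes, was higher, at 22.7 FPKM in the library labelled Kdm2b-/- against 13.0 FPKM in the wild-type library. Scarf2, the closest relative of Scarf1, had a log2 ratio of 0.63, beside 0.48 for Scarf1. Megf11, Cd207, Cd6 and Dmbt1 were listed at 0 in both libraries. The sign of several list medians depended on the scaling: the relatives stood at 0.06 with equal FPKM totals, and with the libraries scaled to a median log2 ratio of 0 the lists of cholesterol and fatty acid handling, haem handling and macrophage markers stood at -0.11, -0.12 and -0.01.

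Genes of cholesterol and fatty acid handling, the cargo of Cd36 and Scarb1, had a median of 0.00 (22 of 23 past the floor, 1 at least 2-fold higher and 0 lower). The shares over all genes past the floor were 0.863% higher and 1.02% lower. Fabp4, the fatty acid binding protein of macrophages and adipocytes, had 48.4 FPKM in the library labelled Kdm2b-/- and 96.4 FPKM in the wild-type library, a log2 ratio of -0.98. Pparg, the nuclear receptor known to act on Cd36 and Fabp4, had 2.20 FPKM in the library labelled Kdm2b-/- and 3.23 FPKM in the wild-type library. Those values rest on 245 and 365 counts, and Pparg was named after its value was seen. Of the 22 genes past the floor, 11 had log2 ratios above 0 and 11 below. The part of Pparg in the values of Cd36 and Fabp4 was not tested. Acsl1, which activates fatty acids, was higher, at 8.46 FPKM in the library labelled Kdm2b-/- against 3.57 FPKM in the wild-type library. Abca1, the cholesterol exporter, had 15.4 FPKM in the library labelled Kdm2b-/- and 9.31 FPKM in the wild-type library. Mylip, a ubiquitin ligase for lipoprotein receptors, had 2.56 FPKM in the library labelled Kdm2b-/- and 1.54 FPKM in the wild-type library.

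Genes around Cd163 and haem had a median of 0.01 (14 of 16 past the floor, 0 at least 2-fold apart). The share over all genes past the floor was 1.88%. Il10, a cytokine known to induce Cd163 in macrophages, had 5.47 FPKM in the library labelled Kdm2b-/- and 9.82 FPKM in the wild-type library. Lrp1, also the haemopexin receptor, is described above. Blvrb, which reduces biliverdin, had 36.1 FPKM in the library labelled Kdm2b-/- and 46.1 FPKM in the wild-type library. Ftl1, the ferritin light chain, had 3882 FPKM in the library labelled Kdm2b-/- and 4913 FPKM in the wild-type library.

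Partners and signalling proteins of the receptors had a median of 0.24 (18 of 20 past the floor, 2 at least 2-fold higher and 0 lower). The shares over all genes past the floor were 0.863% higher and 1.02% lower. That list median was 0.12 with the libraries scaled to a median log2 ratio of 0, and 0.12 with a pseudocount of 5 FPKM. It was 0.19 with the trend with length and GC content removed. Thbs1, thrombospondin, a ligand of Cd36, had 81.9 FPKM in the library labelled Kdm2b-/- and 31.6 FPKM in the wild-type library. Tlr4, the LPS receptor, had 3.45 FPKM in the library labelled Kdm2b-/- and 0.732 FPKM in the wild-type library. Syk, a kinase of phagocytic signalling, had 39.8 FPKM in the library labelled Kdm2b-/- and 25.6 FPKM in the wild-type library. Pdzk1, the adaptor of Scarb1 in liver, was listed at 0 in both.

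**Figure D4:**
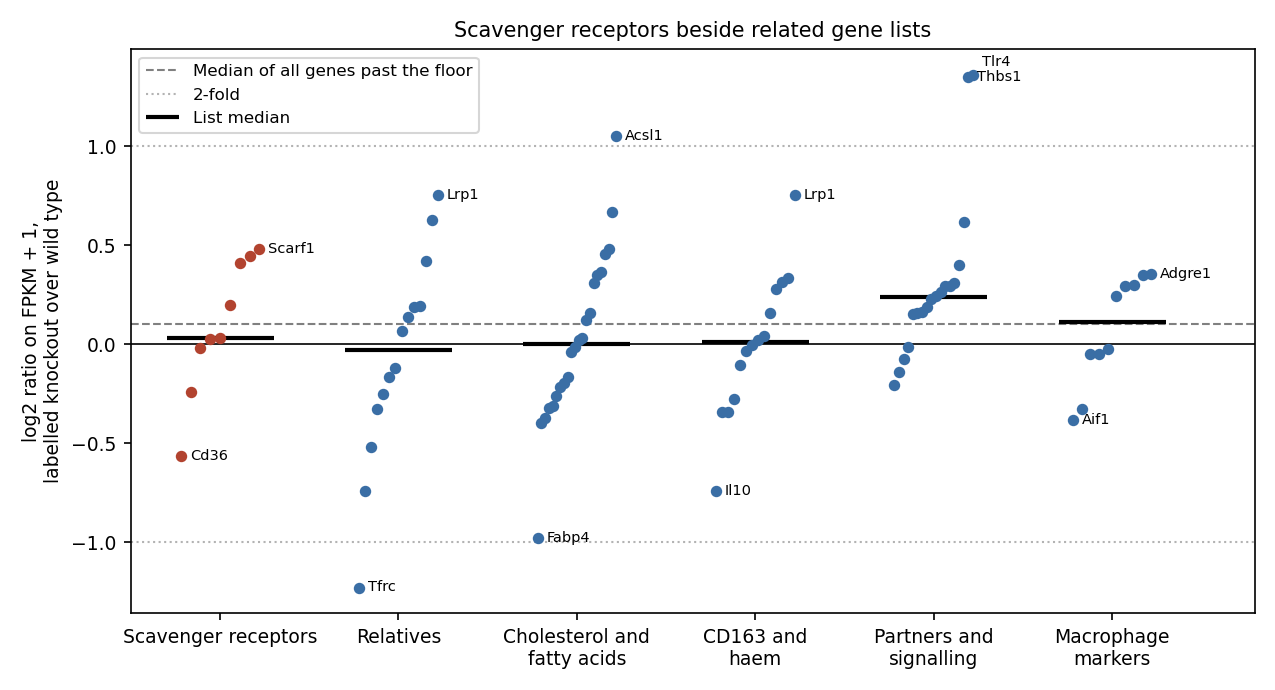
Log2 ratio on FPKM + 1 (library labelled Kdm2b-/- over wild-type library) of each gene past the floor, for the scavenger receptors (red) and 5 related lists (blue); black bars are list medians, the dashed line is the median of all genes (0.10) and dotted lines mark 2-fold. The receptors span -0.56 to 0.48, inside the 2-fold lines, and the partner list has its median at 0.24.

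Markers of other cells that also carry these receptors were read beside them. Endothelium expresses Stab1, Scarf1, Scarb1, Cd36 and Olr1 in tissues. Of 14 endothelial markers 12 were under 1 FPKM in both libraries, the sum was 4.79 FPKM in the library labelled Kdm2b-/- and 3.69 FPKM in the wild-type library, Robo4 and Cldn5 were listed at 0, and the 1 past the floor, Kdr, had a log2 ratio of 0.27. Adipocytes express Cd36 and Fabp4, and all 9 adipocyte markers were under 1 FPKM in both libraries, with sums of 0.127 FPKM in the library labelled Kdm2b-/- and 0.0327 FPKM in the wild-type library and with Plin1, Cidec, Retn and Pck1 at 0. Platelets express Cd36, and of 10 platelet markers 9 were under 1 FPKM in both libraries, with Gp9, Gp1ba, Gp6, Treml1 and Tubb1 at 0. The other one, Pf4, had 17.6 FPKM in the library labelled Kdm2b-/- and 40.9 FPKM in the wild-type library. Pf4 was lower in the library labelled Kdm2b-/-. The scarce platelet markers above 0 had few counts, and their directions were mixed. Itga2b had 18 counts in the library labelled Kdm2b-/- and 6 in the wild-type library. Gp1bb, whose counts did not come out whole, had rounded counts of 15 in the library labelled Kdm2b-/- and 1 in the wild-type library. Gm49601 and Sept5 overlap Gp1bb on the same strand, so reads could have been shared between them. Ppbp had 2 counts in the library labelled Kdm2b-/- and was at 0 in the wild-type library. Clec1b had 34 counts in the library labelled Kdm2b-/- and 42 in the wild-type library. The part of platelets in the value of Cd36 was not tested.

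Mesothelial and stromal cells were represented in both libraries. All 17 of their markers passed the floor, the summed level was 648 FPKM in the library labelled Kdm2b-/- and 493 FPKM in the wild-type library, the median log2 ratio was 0.44, and none was at 0. The genes with the highest log2 ratios were the collagens Col1a1 (1.87), Col1a2 (1.24) and Col3a1 (1.18) and the matrix proteoglycan Bgn (1.12). In this list 5 genes stood higher by 2-fold or more and 0 lower. Over all genes past the floor, 0.863% stood higher by 2-fold or more and 1.02% lower. By sign, 11 of the 17 were above 0 and 6 below. The median of all genes was itself above 0, at 0.10, so this sign count alone does not set the list apart. Those below 0 were the mesothelial markers Msln (-0.50) and Upk1b (-0.19), the keratins Krt19 (-0.31), Krt18 (-0.28) and Krt8 (-0.18), and the matrix proteoglycan Lum (-0.35). The part of these markers in the values of the receptors was not tested.

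Cd5l is a gene of resident peritoneal macrophages, and the other markers of those cells lay on both sides of 0. Of 11, 7 passed the floor, with a median of 0.16, which was 0.69 at a floor of 5 FPKM. Their sums were 1405 FPKM in the library labelled Kdm2b-/- and 1609 FPKM in the wild-type library. Most of this was Saa3, at 1328 FPKM in the library labelled Kdm2b-/- and 1569 FPKM in the wild-type library, so the order of the sums is that of Saa3. Gata6, the transcription factor that defines these cells, had 7.85 FPKM in the library labelled Kdm2b-/- and 4.48 FPKM in the wild-type library. Timd4, a receptor for phosphatidylserine, lay on the other side, at 1.22 FPKM in the library labelled Kdm2b-/- and 2.40 FPKM in the wild-type library. Fn1, fibronectin, had a log2 ratio of 1.11 and Apoc1, an apolipoprotein, one of 0.37. Bulk RNA does not show which cells carried the transcripts of this list, and mesothelial and stromal markers were also present in both libraries. Within the macrophage marker list, Aif1 (-0.38), Cd14 (-0.33), Lyz2 (0.35) and Adgre1 (0.35) had the log2 ratios farthest from 0. The part of the resident and macrophage lists in the values of Cd5l was not tested.

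Lymphocyte, dendritic and granulocyte markers were mostly under the floor. Of 9 B cell markers 3 passed it, with sums of 8.44 FPKM in the library labelled Kdm2b-/- and 32.7 FPKM in the wild-type library. Their median log2 ratio was -1.99, from the immunoglobulin chains Igkc (-3.01) and Ighm (-1.99) and the B cell surface protein Cd22 (0.06). Of 10 T and NK cell markers 2 passed, the kinase Lck (-1.02) and the surface protein Thy1 (0.10), with a median of -0.46. Their sums were 5.45 FPKM in the library labelled Kdm2b-/- and 9.30 FPKM in the wild-type library, and Cd3e, Cd3d, Cd3g, Ncr1 and Cd8a were at 0. Of 8 dendritic cell markers 2 passed, the chemokine Ccl22 (-0.95) and the integrin Itgax (-0.11), with a median of -0.53. Their sums were 101 FPKM in the library labelled Kdm2b-/- and 122 FPKM in the wild-type library, and Xcr1, Clec9a and Siglech were at 0. Of 11 neutrophil markers 2 passed, the calcium-binding protein S100a8 (0.07) and the protease Mmp8 (0.37), with a median of 0.22. Their sums were 17.5 FPKM in the library labelled Kdm2b-/- and 16.1 FPKM in the wild-type library, and Ly6g, Mpo and Retnlg were at 0. The medians below 0 of these lists rest on the 2 or 3 genes past the floor: with no floor they were -0.12 for B cells and 0 for T and NK cells and for dendritic cells. The part of these cells in the values of the receptors was not tested.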

How the data were processed

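The data are 2 RNA libraries, 1 labelled Kdm2b knockout and 1 wild type, read from poly-A RNA as paired ends per the labels' protocols. The authors deposited 1 FPKM value per Ensembl gene, per the file headers. HISAT2 2.0.4 and StringTie 1.3.0 appear in the submitters' processing notes, as do edgeR and the builds GRCm38.p4 and mm10; the role of each is not stated there.

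Symbols, coordinates, lengths and GC content came from GENCODE M21, which named 34344 of 34745 IDs. The length behind the deposited FPKM was identified by whole numbers: FPKM times the summed distinct exons was within 0.02 of a whole multiple of the step for 92.5% of 1513 genes with 1 transcript and under 20 counts in the library labelled Kdm2b-/-, and for 74.8% of 2331 genes with several (92.3% of 1461 and 76.4% of 2415 in the wild-type library). With the longest transcript as length this held for 8.18% of genes with several transcripts and with merged exons for 5.14%, where 4% would be whole by arithmetic alone.

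Log2 ratios used a pseudocount of 1 FPKM and a floor of a mean of 1 FPKM; at least 2-fold was called. With 1 library per group no p-value was computed. Intervals are exact Clopper-Pearson. Calculations ran in Python 3.11.15 with scipy 1.17.1 and were tested on simulated data. The receptors and the 14 other lists were chosen with earlier results of these data known. Named were all receptors, Kdm2b and, per list, up to 4 genes past the floor with the largest log2 ratios, plus markers at 0; Pparg, Saa3, the sex-linked genes, Pdzk1, the relatives listed at 0, the scarce platelet markers and the mesothelial and stromal markers below 0 were named after their values were seen. Alternatives were other pseudocounts, floors, scalings and thresholds and removal of the trend with length and GC content. The length of exon sums in that trend, the wider intervals and the coding-length levels were chosen after seeing the data.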

Additional observations from a re-analysis of the deposited data

How the results depend on the processing

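No receptor past the floor was 2-fold apart under any setting tried. Cd36 (-0.69 to -0.47) and Msr1 (-0.37 to -0.15) stayed below 0 in all 7 alternatives for single genes, and Scarb1 (0.23 to 0.57), Scarf1 (0.27 to 0.59) and Cd5l (0.29 to 0.58) above it. Cd68 (-0.10 to 0.22), Marco (-0.07 to 0.18), Olr1 (-0.14 to 0.09) and Stab1 (-0.09 to 0.34) crossed 0, so their direction depends on the scaling or the trend. Cd163, under the floor, ran from 0.01 to 0.39. Scaling the library labelled Kdm2b-/- by 0.915 moved the median of all genes from 0.10 to 0. The median of the receptors was 0.18 with the exon-sum length and GC trend removed, -0.07 at a median of 0 and -0.02 at a floor of 5 FPKM. The counts of all genes 2-fold apart (78 higher and 92 lower) were 174 higher with a pseudocount of 0.1, 14 higher and 33 lower with 5, 44 higher at a median of 0, 35 higher and 48 lower at a floor of 5 FPKM, 425 and 253 at 1.5-fold, and 5 and 18 at 4-fold. The platelet list, -1.17 from Pf4 alone, had a median of 0 with no floor, since 5 of its 10 genes are at 0; the B cell (-0.12), T and NK cell (0) and dendritic cell (0) lists also moved towards 0 with no floor. No paired analysis was possible because each group has 1 library, and no replicate could be left out. Depth limits Cd163 (11 and 4 counts) and Marco (198 and 196), where only larger differences would show.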
